A study of Mus musculus with 24 samples.

Results

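Liver transcripts of floxed control mice were compared between CT14, early in the subjective night, and CT2, early in the subjective day. These mice, called F, carry Bmal1 f/f alleles and no Cre, so that Bmal1 is intact, and they serve as the controls for a liver knockout. The comparison rests on 6 of the 24 RNA-seq libraries of the study, 3 at CT2 and 3 at CT14, taken by genotype and time from their labels. The other 18 libraries come from WT mice (Bmal1 +/+), global knockouts (KO, Bmal1 -/-) and liver-specific knockouts (LKO, Bmal1 f/f with Alb-Cre), with 3 libraries for each genotype and time. WT and KO were bred from heterozygotes on C57BL/6J. Alb-Cre acts where the albumin promoter is active, chiefly in hepatocytes, so that other liver cells of LKO keep Bmal1. The labels state neither age, sex, lighting nor feeding, nor that replicates came from separate animals, so p-values here may reflect technical spread alone.

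In the mammalian clock, BMAL1 pairs with CLOCK or NPAS2 and binds E-boxes, short DNA motifs in the promoters of period, cryptochrome and PAR bZIP genes. The period and cryptochrome proteins return to inhibit the pair, while REV-ERB receptors repress and ROR receptors activate Bmal1 and Npas2 through another motif, the RORE. In liver this oscillator and daily signals such as feeding, body temperature and glucocorticoids set the timing of many metabolic genes.

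Promoter stretches of 6 clock genes are shown because their transcripts changed between the times, and because they hold the motifs through which clock proteins are known to act. They run 5′ to 3′ on the gene's strand to the base before the RefSeq start site (build GRCm38.p6), from 20 bases before the first match, with the matched motif in capitals. In Ciart the E-box (CACGTG) occurs 3 times, and Cry1 has an E-box after the reverse complement of CACGTT, called here the E-prime box. Per3 holds the D-box (TTANGTAA, the motif of PAR bZIP factors) 2 times and Bmal1 the RORE core (TNGGTCA) 2 times.
Ciart, chr3:95882229-95882364, minus strand: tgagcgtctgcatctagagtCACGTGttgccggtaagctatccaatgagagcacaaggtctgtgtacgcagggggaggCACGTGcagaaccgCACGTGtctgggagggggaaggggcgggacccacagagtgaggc
Per1, chr11:69098763-69098948, plus strand: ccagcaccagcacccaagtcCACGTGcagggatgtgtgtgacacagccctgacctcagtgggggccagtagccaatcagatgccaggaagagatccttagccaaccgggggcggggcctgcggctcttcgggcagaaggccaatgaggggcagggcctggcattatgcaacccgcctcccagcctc
Tef, chr15:81802526-81802672, plus strand: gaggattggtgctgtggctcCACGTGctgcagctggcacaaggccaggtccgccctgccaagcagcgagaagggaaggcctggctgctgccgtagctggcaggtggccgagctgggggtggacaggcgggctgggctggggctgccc
Cry1, chr10:85185055-85185153, minus strand: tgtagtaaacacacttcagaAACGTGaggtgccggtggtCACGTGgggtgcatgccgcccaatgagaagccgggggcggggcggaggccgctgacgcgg
Per3, chr4:151044666-151044890, minus strand: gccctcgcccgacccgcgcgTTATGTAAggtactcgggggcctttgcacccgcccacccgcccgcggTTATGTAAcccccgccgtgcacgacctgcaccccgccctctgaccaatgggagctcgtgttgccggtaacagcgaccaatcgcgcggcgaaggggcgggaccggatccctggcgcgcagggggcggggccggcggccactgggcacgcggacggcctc
Bmal1, chr7:113207245-113207464, plus strand: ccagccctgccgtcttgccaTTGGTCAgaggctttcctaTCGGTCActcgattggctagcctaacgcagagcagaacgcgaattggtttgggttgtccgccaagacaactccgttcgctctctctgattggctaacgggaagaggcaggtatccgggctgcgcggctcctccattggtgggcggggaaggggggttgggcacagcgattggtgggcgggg

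Over windows from 250 bases before to 50 after the start, on either strand, the E-box was found in 5 of the 23 clock genes with a window (Bhlhe41, Ciart, Cry1, Per1 and Tef) and in 7.15% of all 32817 windows. The E-prime box was found in Cry1, Cry2 and Nr1d1 (4.69% of all windows), the D-box in Per3 (2.32%) and the RORE core in Bmal1, Cry2, Nfil3, Per3 and Tef (10.97%). The CRE (TGACGTCA, the motif of CREB) was in Hlf (1.79% of all windows), and the heat shock element in 0 of the 23 (0.603%). A clock gene was counted if any of its windows matched, and some have several, whereas the percentages are shares of single windows. The 2 measures are thus not like for like. A match is a description of the sequence and not a measured site, and genes without a match in this window may hold the motif elsewhere.

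Total counts of the 6 F libraries ran from 88995259 to 123949671, and all 10 hepatocyte markers were detected, with summed levels of 95529 to 138674 CPM (counts scaled to a common library size, edgeR's CPM). F CT2 replicate 3 stood apart from the rest. Its root mean square deviation from its group mean was 0.870 on the log2 scale, against 0.603 to 0.718 in the other 5. Pancreatic acinar markers summed to 2824 CPM there and to 895 CPM in F CT14 replicate 3, whereas the other 4 F libraries had 25.4 to 75.8 CPM. Its mitochondrial share was 1.37% (2.67 to 4.92% in the others) and the Y-linked gene Ddx3y stood at 3.86 CPM (28.8 to 48.5 CPM). Xist, the X-linked transcript expressed in females, stood at 0 CPM there and at 0 to 0.0684 CPM in the other F libraries. Genes whose longest transcript has at least 4288 bases were lower in F CT2 replicate 3 than in the other CT2 libraries by a median of 0.26 on the log2 scale. For these long genes the median log2 fold change of CT14 against CT2 was 0.15, and 0.06 without this library. The part of these differences in the results was not tested.

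By day stands below for CT2 and by night for CT14. Night and day differed for 545 genes in edgeR's quasi-likelihood test at an adjusted p under 0.05, which is 2.66% of the 20514 genes tested. Of these, 273 were higher at CT14 (1.33% of genes tested) and 272 lower (1.33%). The split varied with transcript length. Genes whose longest transcript has at least 4288 bases had 103 higher and 57 lower (65 and 38 without F CT2 replicate 3). Those with at most 1526 bases had 19 higher and 44 lower (7 and 25 without that library). The cause was not tested. The median called gene moved 2.10-fold, 304 moved at least 2-fold, 81 at least 4-fold and 37 at least 8-fold. In 543 of the 545 every CT14 library lay on the same side of every CT2 library, against 19.2% of all genes tested. The count rested on several libraries. It was 341 without F CT2 replicate 3, 240, 318 and 301 without F CT14 replicate 1, 2 or 3, and 207 without both libraries numbered 3. Of the 83 called genes that the naming rule picks and that are given here, 29 lost the call without both libraries numbered 3. A fit to the 6 F libraries alone, without the other 18 to share the estimate of spread, called 35 genes, DESeq2 called 1172, and the authors' deposited table held 409 calls, of which 297 were shared in direction.

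Clock genes changed more often than genes at large. Of 30 clock genes tested 16 were called (53.3%, against 2.66% of all genes), 13 higher and 3 lower at CT14. The groups did not overlap in any of the 16, which was so for 543 of all 545 called genes. Among the activators, Npas2, the paralogue of Clock, was high by day and nearly silent by night. Its level was 11.1, 10.7 and 7.27 CPM by day and 0.184, 0.0573 and 0.119 CPM by night (79.2-fold lower, log2 -6.31 ± 0.37 SE, adjusted p = 2.96e-09). Bmal1 fell from 29.1, 29.8 and 26.6 CPM by day to 3.26, 15 and 10.4 CPM by night. All 3 night libraries were below all day libraries, and replicate 1 was the lowest (log2 -1.58 ± 0.35, adjusted p = 0.0170, 0.0579 without F CT14 replicate 3 and 0.101 without both libraries numbered 3). Clock itself was not called (log2 -0.25 ± 0.49, adjusted p = 0.885), with 62.9, 37.8 and 7.41 CPM by day, where replicate 3 was far below the others, and 26.6 to 33.8 CPM by night.

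Of the 8 repressors tested 7 rose at night. Ciart, whose product CHRONO restrains CLOCK and BMAL1, rose furthest, from 0.103, 0.0391 and 0.159 CPM to 12.2, 2.59 and 4.02 CPM (61.6-fold, log2 5.95 ± 1.11, adjusted p = 0.00567). Its log2 fold change was 5.02 without F CT14 replicate 1, the highest night library. Per3 went from 1.15, 0.391 and 0.693 CPM to 14.5, 18.8 and 20.1 CPM (24-fold, adjusted p = 2.63e-07). Per2 went from 10.2, 4.93 and 3.47 CPM to 60.3, 65.5 and 68.9 CPM (10.5-fold, adjusted p = 1.84e-05). Per2 and Per3 were closely grouped at night and more spread by day. Per1, which also answers glucocorticoids, went from 0.513, 0.684 and 4.59 CPM to 30.3, 10.7 and 16.8 CPM (log2 3.32 ± 0.66, adjusted p = 0.00969), with F CT2 replicate 3 the highest of the day libraries. Without that library the log2 fold change of Per1 was 5.01 (adjusted p = 0.000105). The cryptochromes changed less: Cry2 from 18.2, 20.6 and 20 CPM to 37, 38.5 and 40 CPM (log2 0.97 ± 0.16, adjusted p = 0.00157), and Cry1 by 0.93 ± 0.18 (adjusted p = 0.00759, 0.0581 without F CT14 replicate 2 and 0.0830 without both libraries numbered 3). Bhlhe40, which encodes the repressor DEC1, rose by 1.49 ± 0.28 (adjusted p = 0.00485, and 0.0514 without both libraries numbered 3). Its relative Bhlhe41 was not called, with 0.730, 0.0879 and 0.3 CPM by day and 3.19, 0.621 and 0.955 CPM by night (adjusted p = 0.310).

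Among the receptors that act on the RORE, Nr1d2 (REV-ERB beta) rose from 8.06, 12 and 6.8 CPM to 43.7, 33.7 and 35.3 CPM (log2 2.07 ± 0.31, adjusted p = 0.000700). For Nr1d1 (REV-ERB alpha) the groups overlapped, with 12.9, 6.55 and 27.4 CPM by day and 26.1, 7.55 and 8.99 CPM by night (log2 -0.14 ± 0.51, adjusted p = 0.950). It shares its locus with Thra on the opposite strand, and the strand setting of the counts is not given. Rora was not called either (log2 0.17 ± 0.45, adjusted p = 0.922). In F CT2 replicate 3 it stood at 7.35 CPM, below the 32.7 to 52.5 CPM of the other 5.

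The PAR bZIP factors, which carry clock timing to metabolic genes through the D-box, all rose, and Nfil3, which competes for the same motif, fell. Dbp had 0.456, 0.498 and 0.440 CPM by day and 35.5, 5.66 and 12.4 CPM by night (38.3-fold, log2 5.26, adjusted p = 4.27e-05), and its log2 fold change was 4.28 without F CT14 replicate 1. Tef had 13.3, 16.2 and 22.4 CPM and 178, 121 and 137 CPM (8.39-fold, log2 3.07 ± 0.19, adjusted p = 3.74e-09). The night libraries differed among themselves more for Dbp than for Tef, with replicate 1 the highest for each. Hlf rose by 1.59 ± 0.20 (adjusted p = 7.49e-05). Nfil3 went from 36.3, 70.5 and 46.1 CPM to 18, 21.8 and 23.8 CPM (log2 -1.27 ± 0.18, adjusted p = 0.000420).

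Of 11 clock kinases and ubiquitin enzymes only Usp2, a deubiquitinase with targets in the clock, was called. It rose from 0.935, 2.04 and 1.23 CPM to 44.9, 20 and 28 CPM (22-fold, adjusted p = 6.97e-07). The other 10, among them the casein kinase genes Csnk1d and Csnk1e, had log2 fold changes between -0.67 and 0.45.

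**Figure D1:**
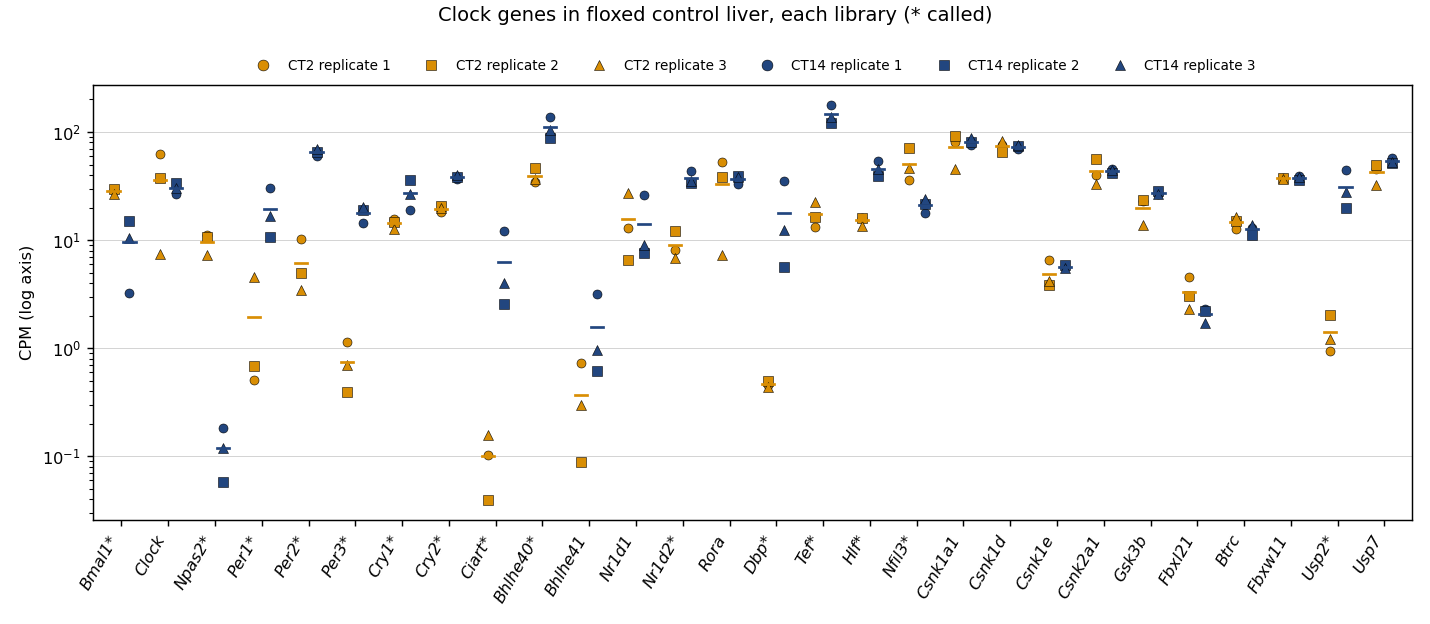
Levels of 28 clock genes in each F library, in CPM on a log axis, with CT2 in orange, CT14 in blue, a symbol for each replicate and a bar at the group mean; an asterisk marks an adjusted p under 0.05. Npas2 lies near 10 CPM by day and near 0.1 CPM by night, Dbp, Ciart, Per3 and Usp2 lie the other way round, and the day and night points of Clock, Nr1d1 and Rora overlap.

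Outside the clock lists, Wee1, a kinase that holds back entry into mitosis, rose from 1.79, 1.82 and 1 CPM to 25.5, 16.3 and 17.5 CPM (12.9-fold, adjusted p = 3.43e-07). The uncharacterised transcript Gm45819 rose as well (log2 5.18 ± 0.70, adjusted p = 0.000219). Its nearest annotated neighbour on the same strand is Wee1. A930033H14Rik rose by 3.73 ± 0.65 (adjusted p = 0.00262), by 4.49 without F CT2 replicate 1, and was not called without both libraries numbered 3 (log2 2.83, adjusted p = 0.0544). It lies opposite Rhobtb1, so their reads may not be told apart. Tsku, a secreted hepatokine, went from 14.1, 10.5 and 21.2 CPM to 297, 132 and 116 CPM (log2 3.57 ± 0.72, adjusted p = 0.0103, and 0.0520 without F CT14 replicate 1). Acot3, a peroxisomal acyl-CoA thioesterase, had 0.297, 0.391 and 1.25 CPM by day and 6.93, 28.2 and 17.8 CPM by night (adjusted p = 0.0199). That call was lost without F CT2 replicate 1 (adjusted p = 0.0835), F CT2 replicate 2 (0.0702) or F CT14 replicate 2 (0.0660). Its log2 fold change was 4.76, or 5.68 without F CT2 replicate 3, and its reads may be shared with related Acot genes.

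The largest falls outside the clock included secreted and lipid genes. Loxl4, a lysyl oxidase of the extracellular matrix, went from 31.5, 39.7 and 17.1 CPM to 0.981, 0.697 and 1.48 CPM (27.9-fold lower, log2 -4.80, adjusted p = 0.000409, and log2 -5.40 without both libraries numbered 3). Spon2, a secreted matrix protein, went from 27.4, 29.4 and 11.9 CPM to 1.3, 3.39 and 1.96 CPM (log2 -3.37 ± 0.41, adjusted p = 7.49e-05). Elovl3, which lengthens saturated fatty acids and is a male-biased liver gene, went from 672, 625 and 220 CPM to 22.1, 37.7 and 31.4 CPM (16.6-fold lower, adjusted p = 0.00491). In Loxl4, Spon2 and Elovl3, F CT2 replicate 3 was the lowest day library. Pitx3, a homeobox gene, followed the same pattern with 14.2, 13.6 and 1.26 CPM by day and 0.105 to 0.525 CPM by night (log2 -4.99 ± 1.03, adjusted p = 0.0123). It overlaps Elovl3 on the opposite strand, and its call was lost without F CT14 replicate 1 (adjusted p = 0.0771) or replicate 3 (0.0683). Without F CT14 replicate 2 its log2 fold change was -5.63.

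Weakly expressed transcripts also fell. The noncoding RNA Gm11454 had 1.02, 0.821 and 1.19 CPM by day and 0, 0 and 0.00918 CPM by night (adjusted p = 1.15e-06). These are 300 counts against 1, a ratio of 338 with an exact 95% interval of 60.2 to 13391 that covers counting error only. The noncoding RNA 3930402G23Rik fell by 3.52 on the log2 scale (adjusted p = 8.70e-05, and log2 -4.33 without F CT14 replicate 2) and Gm15998, antisense to Efna3, by 2.53 (adjusted p = 0.000784). Mtnr1a, a melatonin receptor, went from 2.59, 1.99 and 0.711 CPM to 0.0701, 0.344 and 0.523 CPM (log2 -2.49, adjusted p = 0.0121, and log2 -3.09 without F CT14 replicate 3). Rfx4, a transcription factor gene, fell by 2.39 ± 0.44 (adjusted p = 0.00426). Gm379 fell by 3.47 ± 0.79 (adjusted p = 0.02), a call lost without F CT2 replicate 2 (log2 -2.68, adjusted p = 0.0687), F CT14 replicate 1 (0.0943) or F CT14 replicate 3 (0.0858).

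Of 28 lipogenic genes 4 rose and 1, Elovl3, fell, with a median log2 fold change of 0.66 against 0.03 over all genes tested. The counts of this and the later lists stand beside 1.33% called higher and 1.33% called lower over all genes tested. A list with only 1 or 2 calls says little beyond those genes. Thrsp, which promotes fatty acid synthesis, went from 181, 187 and 121 CPM to 1906, 1899 and 1535 CPM (10.9-fold, adjusted p = 0.000137). Fasn, the fatty acid synthase, went from 753, 374 and 592 CPM to 2131, 2224 and 1523 CPM (3.42-fold, adjusted p = 0.00882). For both genes every night library was above every day library. Lpin1, a phosphatidate phosphatase, rose by 1.89 ± 0.44 (adjusted p = 0.0237), a call lost without F CT2 replicate 1, 2 or 3 or F CT14 replicate 1 (adjusted p of 0.0674 to 0.141). Acaca, which makes malonyl-CoA, had a log2 fold change of 0.64 ± 0.20 (adjusted p = 0.0857, and called in DESeq2). Of 31 genes of fatty acid oxidation 2 rose, Acot3 and the nuclear receptor gene Ppara. Ppara went from 66.5, 53.5 and 61.4 CPM to 122, 128 and 129 CPM (adjusted p = 0.0439), and its call was lost when any single F library was left out (adjusted p of 0.0859 to 0.114). Cpt1a, the gate to mitochondrial oxidation, had an adjusted p of 0.0552 in edgeR and was called higher in DESeq2.

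Of 25 glucose and glycogen genes 8 were higher and 0 lower in edgeR, with a median of 0.34, and DESeq2 called 9 higher and 2 lower. Gys2, the liver glycogen synthase, went from 82.9, 75.3 and 64.3 CPM to 278, 223 and 169 CPM (log2 1.59 ± 0.17, adjusted p = 1.81e-05), and Ppp1r3b, which activates it, from 245, 93.6 and 103 CPM to 525, 522 and 484 CPM (adjusted p = 0.00319). For both genes the day and night libraries did not overlap. Pfkfb3, which raises the flux through glycolysis, rose by 1.71 ± 0.38 (adjusted p = 0.0174), a call lost without F CT14 replicate 1 (log2 1.10, adjusted p = 0.154) or F CT2 replicate 2 (0.0676). Among the other called genes Pklr, Slc2a2 and Slc37a4 rose by 0.71 to 1.09 on the log2 scale. Pck1, the gluconeogenic enzyme, was not called and varied by day, at 298, 1590 and 923 CPM. Without both libraries numbered 3 the list had 3 genes higher, and lipogenesis 2 higher and 1 lower, while fatty acid oxidation had 0 in edgeR.

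NAD synthesis had 2 of 16 genes called. Nampt, its rate-limiting enzyme, went from 25.2, 28.7 and 9.17 CPM to 105, 72.5 and 85 CPM (log2 2.05 ± 0.37, adjusted p = 0.00365). Nmrk1, the nicotinamide riboside kinase, went from 10, 7.64 and 3.60 CPM to 30.5, 30.8 and 26.2 CPM (log2 2.04 ± 0.30, adjusted p = 0.000520). Amino acid catabolism had 3 of 30 higher and 1 lower, with a median of 0.16. The fall was in Cbs, the first enzyme of transsulfuration, from 565, 535 and 1020 CPM to 240, 263 and 257 CPM (adjusted p = 0.000440). Asl, which releases arginine in the urea cycle, and Gpt2, an alanine aminotransferase, rose by 1.05 ± 0.23 and 1.04 ± 0.24. Asl was not called without F CT2 replicate 1 (adjusted p = 0.0818) or 2 (0.0583), and Gpt2 without F CT2 replicate 1 or 2 or F CT14 replicate 1 or 2 (0.0551 to 0.0741). The urea cycle genes Cps1 (adjusted p = 0.0552) and Arg1 (0.0518) had log2 fold changes of 0.57 ± 0.16 and 0.62 ± 0.17. Both were called higher in DESeq2.

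Xenobiotic metabolism had 5 of 28 genes higher and 0 lower, with a median of 0.37. Those below supply or control the cytochromes P450 or belong to them. Alas1, which starts haem synthesis, went from 62.3, 67.3 and 91.1 CPM to 1153, 389 and 235 CPM (8.05-fold, log2 3.01, adjusted p = 0.00696), with replicate 1 far above the other night libraries. Without F CT14 replicate 1 its log2 fold change was 2.09 (adjusted p = 0.0443). Por, the P450 reductase, went from 82.1, 102 and 215 CPM to 437, 485 and 568 CPM (3.74-fold, adjusted p = 0.00333). Alas1 was spread over the night libraries and Por over the day libraries. Nr1i3, the receptor CAR, rose by 1.28 ± 0.21 (adjusted p = 0.00157). Cyp2a5, whose reads may be shared with Cyp2a4, rose by 2.87 ± 0.63 (adjusted p = 0.0157), a call lost without F CT14 replicate 1 or any CT2 library (adjusted p of 0.0529 to 0.0761). Cyp3a11, an abundant P450, stood at 1138 to 3272 CPM with overlapping groups (log2 0.04 ± 0.32, adjusted p = 0.980). Of the 28 conjugating enzymes (UGT, SULT and GST genes) 0 were called in edgeR, 8 had an unadjusted p under 0.05, and DESeq2 called 1 lower. Over all genes tested 3129 (15.3%) had an unadjusted p under 0.05 for F.

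Bile acid genes moved in both directions, 2 of 21 higher and 2 lower, with a median of 0.13. Hsd3b7, which acts early in bile acid synthesis, went from 691, 509 and 711 CPM to 159, 256 and 215 CPM (log2 -1.60 ± 0.19, adjusted p = 5.96e-05). Abcb11, the bile salt export pump, fell by 0.73 ± 0.19 (adjusted p = 0.0485), and Klb, the co-receptor for FGF15, rose by 0.93 ± 0.23 (adjusted p = 0.0321). Akr1d1, a steroid reductase of the pathway, rose by 1.19 ± 0.29 (adjusted p = 0.0299). The calls of Abcb11 (adjusted p of 0.0801 to 0.173) and Klb (0.0663 to 0.113) were lost when F CT2 replicate 1 or 2 or any CT14 library was left out, and that of Akr1d1 without F CT2 replicate 3 or F CT14 replicate 2 or 3 (0.111 to 0.138). Cyp7a1, the rate-limiting enzyme, had 24.8, 41.6 and 12.3 CPM by day and 92, 84.5 and 51.4 CPM by night, groups that did not overlap but were not called in edgeR (log2 1.53 ± 0.58, adjusted p = 0.197). It was called higher in DESeq2 (adjusted p = 0.0472) and in the authors' deposited DESeq2 table (adjusted p = 0.0136). Of 26 cholesterol synthesis genes 0 were called in edgeR or DESeq2 and 4 had an unadjusted p under 0.05, with a median of 0.05.

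**Figure D2:**
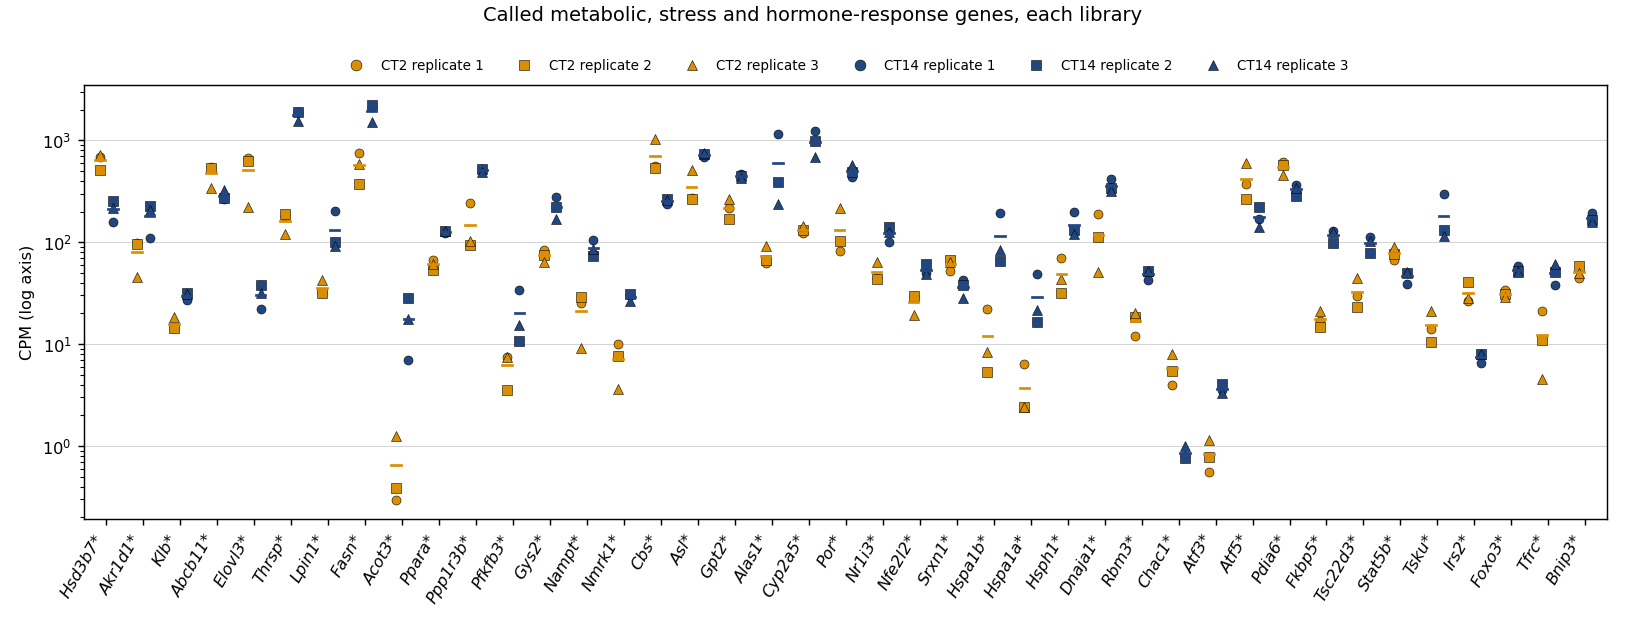
Levels of called genes of the metabolic, stress and hormone lists in each F library, in CPM on a log axis, drawn as in the plot of clock genes. Thrsp, Fasn, Gys2, Alas1 and Por lie higher in every CT14 library than in every CT2 library, and Elovl3, Hsd3b7, Irs2 and Cbs lie lower.

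Some chaperone transcripts rose at night. Of 20 heat shock genes 5 were higher and 0 lower, against 1.33% of all genes tested in each direction. Their median was 0.66, and 18 of 20 were above 0, as were 10782 of the 20514 genes tested. The inducible Hspa1b went from 22.3, 5.30 and 8.39 CPM to 193, 65.1 and 83.5 CPM (log2 3.25 ± 0.72, adjusted p = 0.0190), and its near-identical neighbour Hspa1a by 2.97 ± 0.75 (adjusted p = 0.0402). Their reads may be shared. Without F CT14 replicate 1 the log2 fold changes of Hspa1b and Hspa1a were 2.63 and 2.37, and without F CT2 replicate 1 they were 4.02 and 3.56. Hsph1 and Dnaja1, co-chaperones of this system, rose by 1.63 ± 0.38 and 1.61 ± 0.36. F CT14 replicate 1 was the highest library for these 4 genes. The list was sensitive to single libraries, with 0 to 6 genes called when any F library was left out and 0 without both libraries numbered 3. Hspa1b, Hsph1 and Dnaja1 were lost without F CT14 replicate 1 or F CT2 replicate 2 or 3 (adjusted p of 0.0506 to 0.111), and Hspa1a without those or F CT14 replicate 2 or 3 (0.0517 to 0.181). Rbm3, which binds RNA in the cold, rose by 1.53 ± 0.32 (adjusted p = 0.0117, and 0.0587 without F CT2 replicate 1), while its relative Cirbp had 9.34, 14.8 and 24.5 CPM by day and 6.01, 6.88 and 8.13 CPM by night (adjusted p = 0.0819). Cirbp was called lower in DESeq2.

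Glucocorticoid-responsive genes had 3 of 16 called, all higher. These calls held when any single F library was left out, that of Per1 with an adjusted p of up to 0.0485. In the fit to the F libraries alone Per1 (adjusted p = 0.279) and Tsc22d3 (0.108) were not called. The authors' deposited DESeq2 table did not call Per1 either (adjusted p = 0.0549). Besides Per1, Fkbp5, a chaperone of the receptor, went from 17, 14.6 and 21 CPM to 128, 97.2 and 125 CPM (6.66-fold, adjusted p = 1.09e-05), and Tsc22d3 (GILZ) from 29.5, 22.9 and 44.6 CPM to 112, 79 and 103 CPM (adjusted p = 0.00235). The receptor gene Nr3c1 was not called (log2 0.45 ± 0.30, adjusted p = 0.538). Among insulin signalling and hepatokine genes 2 of 20 rose, Tsku and Foxo3 (log2 0.77 ± 0.14, adjusted p = 0.00296). Irs2, which relays insulin signalling in liver, fell from 26.7, 40.7 and 28.5 CPM to 6.52, 7.98 and 7.95 CPM (log2 -2.09 ± 0.38, adjusted p = 0.00368). The insulin receptor gene Insr did not pass (log2 0.18 ± 0.22, adjusted p = 0.781). In the growth hormone axis 1 of 15 was called, Stat5b (log2 -0.75 ± 0.18, adjusted p = 0.0273), and that call was lost when any F library other than F CT2 replicate 1 was left out (adjusted p of 0.0509 to 0.151). Igf1 had a log2 fold change of 0.41 ± 0.22 (adjusted p = 0.392).

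Among genes of the endoplasmic reticulum and ATF4 stress response 3 of 28 fell and 1 rose, with a median of -0.31. Chac1, which degrades glutathione, went from 3.97, 5.46 and 7.95 CPM to 0.797, 0.764 and 1.01 CPM (log2 -2.76 ± 0.47, adjusted p = 0.00235). The stress factor gene Atf5 fell by 1.22 ± 0.26 (adjusted p = 0.0129, and 0.0679 to 0.1 without F CT2 replicate 3 or F CT14 replicate 1 or 3). Pdia6, a protein disulfide isomerase, fell by 0.73 ± 0.18 (adjusted p = 0.0314, and 0.0663 to 0.154 when any library other than F CT2 replicate 3 was left out). Atf3, which is also an immediate early gene, rose by 2.12 ± 0.44 (adjusted p = 0.0105, and 0.0531 without F CT2 replicate 1). Atf4 and the chaperone gene Hspa5 were not called (adjusted p of 0.382 and 1). Of 22 NRF2 and antioxidant genes Nfe2l2, which encodes NRF2, rose from 29.6, 29.7 and 19.2 CPM to 50, 60.7 and 49 CPM (adjusted p = 0.00148). Srxn1, a known NRF2 target, fell by 0.76 ± 0.19 (adjusted p = 0.0347, and 0.0513 to 0.185 when any library other than F CT2 replicate 1 was left out), and Nqo1, another target, had a log2 fold change of 0.11 ± 0.38.

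The fibrinogen genes fell together. Of 21 acute phase genes these 3 were lower and 0 higher, with a median of -0.35. Fgb went from 8696, 10480 and 5104 CPM to 2319, 3806 and 3704 CPM (log2 -1.30 ± 0.28, adjusted p = 0.0123), and Fga and Fgg fell by 1.26 ± 0.28 and 1.20 ± 0.30. The calls held without F CT2 replicate 1 or 3 and were lost without F CT14 replicate 1 or F CT2 replicate 2 (adjusted p of 0.0526 to 0.167), those of Fga and Fgg also without F CT14 replicate 2 (0.0551 and 0.0786) and that of Fgg without F CT14 replicate 3 (0.0772). Saa1 and Orm1, which mark the acute response, overlapped between the times (adjusted p of 0.915 and 0.988). Of 22 interferon-stimulated genes 0 were called in edgeR or DESeq2 and 0 had an unadjusted p under 0.05.

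In the cell cycle list 4 of 26 rose and 1 fell. Besides Wee1, Rrm2, a ribonucleotide reductase subunit, rose by 1.90 ± 0.37 (adjusted p = 0.00610, and 0.0547 without F CT14 replicate 1), Gadd45a by 1.59 ± 0.36 and Ccne1 by 1.86 ± 0.49. Cdkn1a, the inhibitor p21, went from 5.93, 8.30 and 6.41 CPM to 1.62, 3.42 and 2.71 CPM (log2 -1.41 ± 0.37, adjusted p = 0.0405). Gadd45a was lost without F CT2 replicate 2 or 3 or F CT14 replicate 1 or 3 (adjusted p of 0.0684 to 0.0845), Ccne1 without any CT2 library or F CT14 replicate 1 (0.0874 to 0.477, with a log2 fold change of 0.66 without the latter), and Cdkn1a when any single F library was left out (0.05 to 0.187). Klf10, an immediate early gene, rose by 1.47 ± 0.31 (adjusted p = 0.0117, and 0.0513 to 0.0720 without F CT2 replicate 1 or 2 or F CT14 replicate 1). Fos and Egr1 were not called, and Egr1 stood at 82 CPM in F CT2 replicate 3 while the other F libraries had 0.508 to 16.2 CPM. Polr1a, the large subunit of RNA polymerase I, was the only called gene of 24 in ribosome biogenesis (log2 0.96 ± 0.20, adjusted p = 0.00979, and 0.0628 without F CT14 replicate 1). Bnip3, a mitophagy receptor, rose from 44.9, 58.7 and 50.2 CPM to 194, 164 and 157 CPM (adjusted p = 2.52e-06), the only call among 18 autophagy genes. Tfrc, which takes up iron, rose by 2.02 ± 0.49 (adjusted p = 0.0290, and 0.0535 to 0.115 when any library other than F CT2 replicate 1 was left out, and log2 2.66 without that one). Of 31 cytosolic ribosomal protein genes, 25 nuclear respiratory chain genes and 13 mitochondrially encoded genes 0 were called in edgeR or DESeq2. An unadjusted p under 0.05 was found for 3, 1 and 0 of them, against 15.3% of all genes tested.

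**Figure D3:**
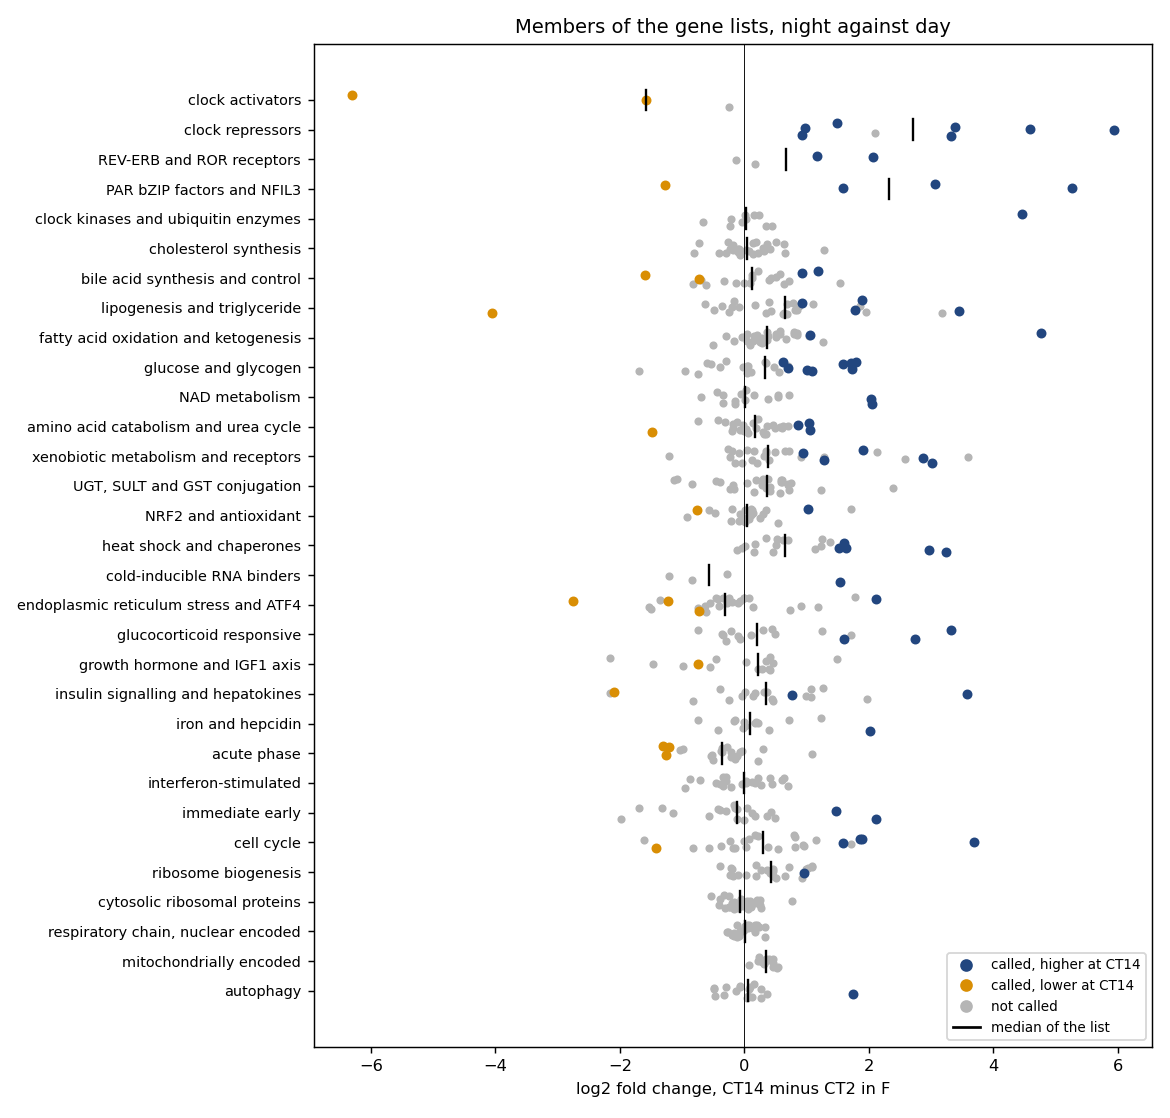
Log2 fold change, CT14 minus CT2 in F, of each tested member of the clock, metabolic, stress, hormone and growth lists, with called genes in blue (higher) or orange (lower), others in grey and a bar at the median of the list. The clock repressors and PAR bZIP factors lie far to the right, and the ribosomal protein, respiratory chain and cholesterol lists lie around 0.

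Markers of other cell types and sex-biased genes were read beside these lists. Of 14 Kupffer cell, 14 endothelial, 10 cholangiocyte, 15 lymphocyte, 11 neutrophil and 7 erythroid markers tested 0 were called in edgeR, and DESeq2 called 1 Kupffer cell marker. An unadjusted p under 0.05 was found for 1, 0, 0, 2, 0 and 1 of them, against 15.3% of all genes tested. Among 14 stellate cell markers Ngfr fell (log2 -1.30 ± 0.32, adjusted p = 0.0331, and 0.152 to 0.189 without F CT2 replicate 3 or F CT14 replicate 1 or 3). Of 11 pericentral hepatocyte markers the glutamate transporter gene Slc1a2 rose (log2 0.99 ± 0.21, adjusted p = 0.0133, and 0.0630 to 0.0867 without F CT2 replicate 1 or F CT14 replicate 1 or 2), and Glul did not pass (adjusted p = 0.965). Summed pericentral markers ran from 5043 to 8800 CPM by day and from 9368 to 10341 CPM by night. Fewer cells of a type and less RNA per cell cannot be told apart in bulk tissue. Male-biased genes had 2 of 20 lower, Elovl3 and Hsd3b5 (log2 -1.71 ± 0.45, adjusted p = 0.0470, and 0.0565 to 0.195 when any single F library was left out), and female-biased genes 2 of 22 higher, Acot3 and Fmo2 (log2 2.44 ± 0.41, adjusted p = 0.00215). The summed male-biased level varied within each time, from 27951 to 50093 CPM by day and from 13472 to 58643 CPM by night. Summed spermatid markers were at 16.4 to 20.3 CPM by day and 20 to 47.1 CPM by night, with 0 of 18 called in edgeR or DESeq2 and 0 at an unadjusted p under 0.05. The part of these markers in the results was not tested.

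The WT line, which shares no library with F, gives the same comparison in other samples with an intact clock. In WT 521 genes were called (2.54%), 226 higher (1.1%) and 295 lower (1.44%). Of the 273 genes higher at night in F, 135 were called higher in WT, 49.5% of the F calls and 59.7% of the WT calls, and 258 had the same sign. Of the 272 lower in F, 119 were called lower in WT, 43.8% of the F calls and 40.3% of the WT calls, and 257 had the same sign. The F genes moved by a median of 0.80 and -0.71 on the log2 scale in WT, against 1.13 and -1.02 in F, where they were chosen. Of the 16 called clock genes 15 were called in WT in the same direction, and the exception was Cry1 (log2 0.19 in WT, adjusted p = 0.842). Gene by gene, Npas2 had a log2 fold change of -7.26 in WT, Dbp 5.85, Per3 4.74, Usp2 5.24 and Elovl3 -3.51. Chac1 had a log2 fold change of -2.76 in F and 0.03 in WT, but the difference between F and WT did not pass (adjusted p = 0.457).

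A test of the difference itself called 0 genes between F and WT (0% of genes tested) in edgeR, with 993 at an unadjusted p under 0.05, and 26 in DESeq2. Without F CT2 replicate 2 edgeR called 2. The 8 genes with the smallest p-values are thus given as values. Slc30a1, a zinc exporter, had 25.3, 25.4 and 17.7 CPM by day and 57.3, 52.2 and 57.9 CPM by night in F (log2 1.29 ± 0.20, adjusted p = 0.000979), and means of 37.6 and 34.3 CPM in WT. Nfe2l2 had means of 26.1 and 53.2 CPM in F and 37.5 and 36.6 CPM in WT. The differences of the time effects were 1.42 ± 0.28 and 1.06 ± 0.23, each with an adjusted p of 0.457. Nckap5 had means of 0.252 and 0.457 CPM in F and 3.18 and 0.288 CPM in WT (difference 4.32 ± 0.73, adjusted p = 0.165). Plcl2 had 9.06 and 14 CPM in F and 16.9 and 9.68 CPM in WT, and Tff3 3.14 and 12.8 CPM in F and 4.42 and 1.49 CPM in WT (differences 1.42 ± 0.29 and 3.60 ± 0.78, each with an adjusted p of 0.457). 4930579F01Rik, Slc14a1 and Hrk were under 1 CPM in every F and WT group mean and at 0 at 1 time in WT or F, so no fold is given.

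The LKO mice carry the same floxed alleles and Alb-Cre, and the KO mice lack Bmal1 everywhere, so they give the same comparison where BMAL1 is absent from hepatocytes or from all cells. LKO had 174 calls (0.848%), 91 higher (0.444%) and 83 lower (0.405%), and KO had 0 in edgeR (0%), with 753 at an unadjusted p under 0.05. The 273 night-high F genes had a median log2 fold change of 0.45 in LKO, where 31 were called higher, and of 0.01 in KO. The 272 day-high F genes had medians of -0.44 in LKO, where 26 were called lower, and 0.04 in KO. The signs were the same as in F for 242 and 239 of them in LKO, and for 140 and 114 in KO. Of the 57 genes called in F and LKO in the same direction, 35 were called in WT as well. The 57 include genes described above: Usp2 (log2 2.48 in LKO), Fkbp5 (1.88), Per2 (1.80), Ppp1r3b (1.47), Hsph1 (1.73), Tsc22d3 (1.22), Hlf (0.88), Nfil3 (-0.77) and Chac1 (-2.84). Of these, Ppp1r3b and Chac1 were not called in WT (log2 0.64 and 0.03).

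**Figure D4:**
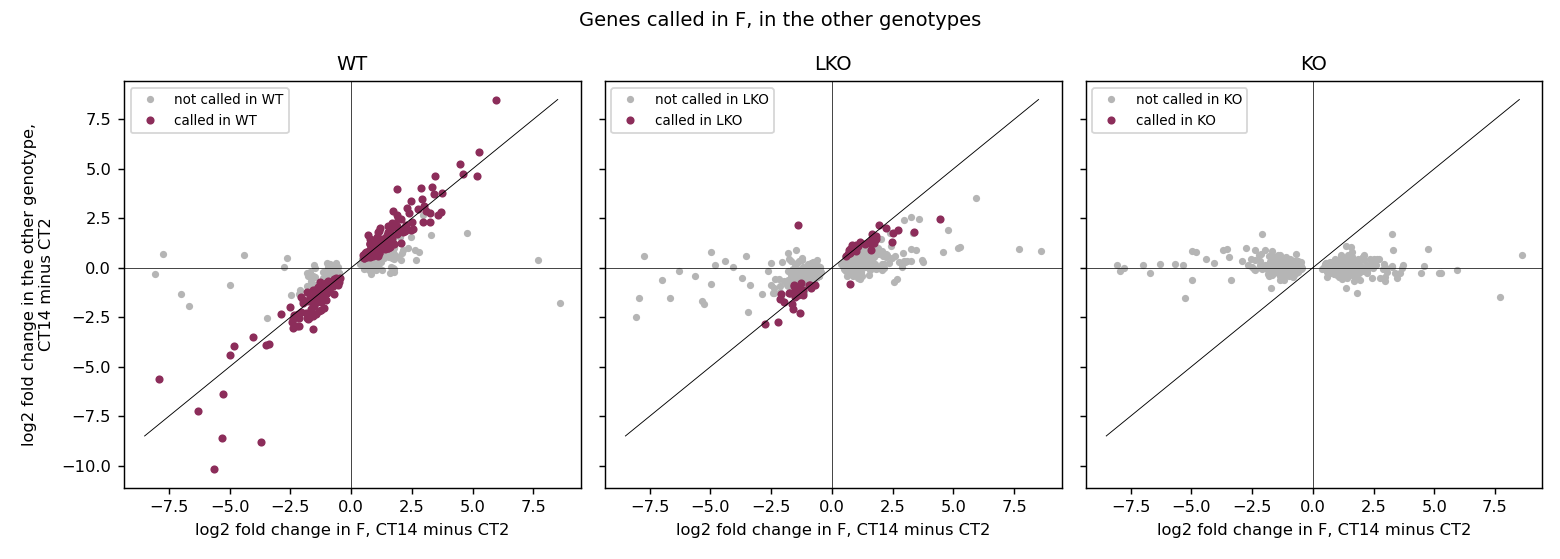
Log2 fold change, CT14 minus CT2, of the 545 genes called in F (x axis) and in WT, LKO or KO (y axis), with genes also called in the second genotype in purple and a line of equal change. The purple points lie along the line in WT, most points lie closer to 0 in LKO and they lie around 0 in KO, where edgeR called 0 genes.

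The difference of the time effects between LKO and F was called for 23 genes (0.112%), 11 higher and 12 lower in LKO, with 1276 at an unadjusted p under 0.05. The genotypes share no library, but deviations from the group means were positively correlated between their same-numbered libraries at CT2. LKO CT2 replicate 3 deviated most among LKO libraries (0.737 on the log2 scale, against 0.515 to 0.599), had a mitochondrial share of 1.82%, and was lower in long genes than the other LKO CT2 libraries by a median of 0.30. The part of these likenesses in the calls was not tested beyond the counts that follow. Over all genes tested the deviations of same-numbered F and LKO libraries from their group means had r of 0.18, 0.14 and 0.31 at CT2 and -0.15, -0.01 and -0.04 at CT14, and the labels give no meaning to the numbers. F CT2 replicate 2 correlated more with LKO CT2 replicate 1 (r = 0.19) than with its own number. The other CT2 pairs of unlike number had r of -0.30 to -0.02. Deviations cancel within a group by construction, so positive r in some pairs goes with negative r in others. These negative values are no separate evidence that the numbers match. The count was 57 without LKO CT2 replicate 3, 55 without F CT2 replicate 3, 75 without both of these, 14 without F CT14 replicate 3 and 12 to 15 without any other single LKO library. It was 38, with 21 of the 23 among them, with the number shared by F and LKO within each time as a block, and 10 without all F and LKO libraries numbered 3. Npas2, at means of 9.67 and 0.120 CPM in F, stood at 21.3 and 19.2 CPM in LKO (difference 6.16 ± 0.45, adjusted p = 1.88e-07). Tef, at 17.3 and 145 CPM in F, stood at 74.8 and 94.4 CPM in LKO (difference -2.73 ± 0.25, adjusted p = 6.08e-06), and Per3 at 0.745 and 17.8 CPM in F and 3.04 and 5.35 CPM in LKO (difference -3.77 ± 0.46, adjusted p = 0.000406). These genes had levels in LKO between or above the F extremes and small time differences. Wee1 went from 6.60 to 8.79 CPM in LKO (difference -3.27 ± 0.40, adjusted p = 0.000406). Cdkn1a fell at night in F and rose in LKO, from 14.7 to 66.3 CPM (log2 2.17 ± 0.37, adjusted p = 0.0139), and the difference was 3.59 ± 0.52 (adjusted p = 0.00284). Papss2, which makes the sulfate donor for sulfation, went from 68.8, 85.6 and 67.8 CPM to 128, 202 and 191 CPM in F and had a log2 fold change of -0.42 ± 0.18 in LKO (difference -1.65 ± 0.25, adjusted p = 0.00423). Gm11454 and 3930402G23Rik complete the 8 smallest p-values, with differences of 6.42 ± 0.87 and 4.10 ± 0.57. All 8 were called when any single F or LKO library was left out and with that block, and of the 8 Papss2 was not called without all F and LKO libraries numbered 3.

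**Figure D5:**
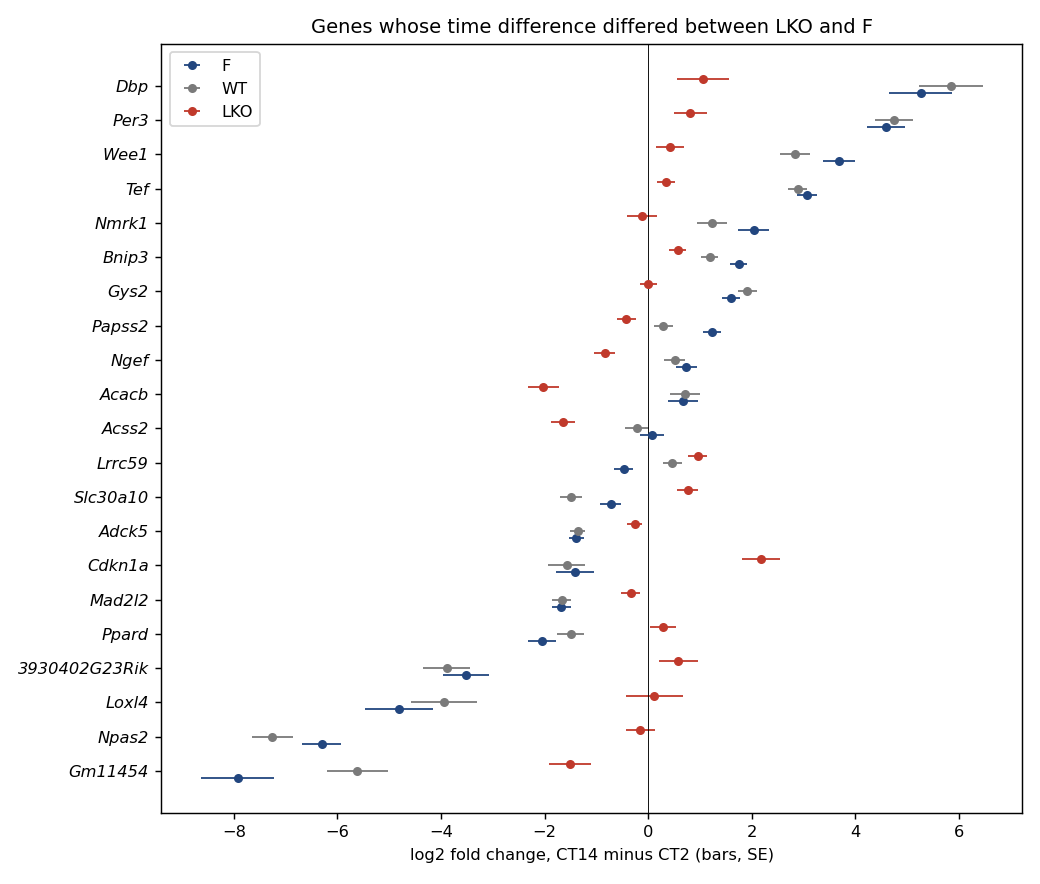
Log2 fold change, CT14 minus CT2, of 21 of the 23 genes whose time difference was called between LKO and F, with bars of 1 SE, for F (blue), WT (grey) and LKO (red). WT lies beside F for Npas2, Dbp, Per3 and Tef, and Cdkn1a lies on the other side of 0 in LKO. For Lrrc59 and Acss2 WT lies on the other side of 0 from F, and for Papss2 it lies closer to 0 than F.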

How the data were processed

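Liver poly(A) RNA went into stranded mRNA libraries, per the labels' protocols. The submitters' processing notes list HISAT2 2.2.1, StringTie 1.3.1 and fastp 0.23.2, with GRCm39 as the build. The sources used here name neither an annotation release nor the strand setting of the counts. The authors deposited estimated counts per gene, which are whole numbers. The authors deposited TPM values for the same genes and libraries. The authors also deposited a DESeq2 table with the log2 fold change, p-value and adjusted p-value of CT14 against CT2 in F.

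Estimated counts of all 24 libraries were fitted with edgeR 4.0.16 (R 4.3.3), using TMM scaling, filterByExpr (minimum count 10, minimum total 15), 8 group means and robust quasi-likelihood F-tests with 16 residual degrees of freedom. This kept 20514 of 56941 genes. All p-values were adjusted by Benjamini-Hochberg over all genes tested, and a gene was called at an adjusted p under 0.05. Every adjusted p in the text is from this test unless another tool is named. SE is the absolute log2 fold change divided by the square root of F. CPM are counts divided by the library total times its TMM factor, so an F library with 88995259 counts has the least precision. Intervals cover counting error only.

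The members and gene lists were chosen with earlier results of these data known. Named genes were all members of the clock lists; in each direction the 12 genes with the largest log2 fold change among those called, not overlapping and at a mean of at least 1 CPM; in every other list up to 4 called members and 1 or 2 central members not called; and the 8 smallest p-values of each difference between genotypes. Promoters came from RefSeq tables (GRCm38.p6), where 103 of 134 named genes matched, and gene overlaps and transcript lengths from a GRCm38 annotation, for names and lengths only. Lengths matched 96.8% of tested genes. A few genes that the rule names are not reported here, in text or figures, though counts include them. Tests were checked on simulated data. Alternatives were other scaling, filters, counts divided by 4, DESeq2 1.42.0, limma 3.58.1 on log2(TPM + 1) and log2(TPM + 0.1), a replicate block, the compared libraries alone, and libraries left out. For LKO against F, leaving out LKO libraries and a block shared by F and LKO were chosen after seeing the data. Figures were drawn with matplotlib 3.10.9.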

Additional observations from a re-analysis of the deposited data

Results flagged for a closer look

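The change from day to night differed between LKO and F, by the test of the difference itself in edgeR, for 23 genes, of which 21 are given. Differences are log2 fold changes of LKO minus those of F. They were positive for Gm11454 (6.42), Npas2 (6.16), Loxl4 (4.92), 3930402G23Rik (4.10), Cdkn1a (3.59), the nuclear receptor gene Ppard (2.34), the manganese exporter gene Slc30a10 (1.49), Lrrc59 (1.43), Mad2l2 (1.34) and Adck5 (1.13). They were negative for Dbp (-4.20), Per3 (-3.77), Wee1 (-3.27), Tef (-2.73), Acacb (-2.71), which encodes an acetyl-CoA carboxylase, Nmrk1 (-2.16), the acetyl-CoA synthetase gene Acss2 (-1.71), Papss2 (-1.65), Gys2 (-1.58), Ngef (-1.58) and Bnip3 (-1.18). The calls of Acss2, Adck5, Bnip3, Dbp, Loxl4, Lrrc59, Mad2l2, Ngef, Nmrk1 and Slc30a10 were lost without at least 1 F library and without at least 1 LKO library, and those of the other genes named here were not. Without all F and LKO libraries numbered 3, the calls of Acacb and Papss2 were lost as well. The replicate block shared by F and LKO within each time took away the calls of Loxl4 and Acss2. In WT the log2 fold changes of Lrrc59 (0.47) and Acss2 (-0.22) had the opposite sign to those in F (-0.47 and 0.07). That of Papss2 was 0.29 in WT and 1.23 in F. The differences between F and WT were not called for these genes.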

How the results depend on the processing

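The main count was 545 genes, 273 higher and 272 lower. Leaving out 1 F library gave 240 to 578 genes (129 to 278 higher, 111 to 300 lower), 0 to 2 for F against WT, 14 to 55 for LKO against F (12 to 57 with LKO libraries left out as well), 49 to 68 list genes (80 in the main count) and 56 to 71 named genes (86). Without both F libraries numbered 3 the counts were 207, 109 higher and 98 lower, with 49 list genes and 56 named genes, and 177 of the 545 were shared. The named genes whose call was then lost were A930033H14Rik, Acot3, Akr1d1, Atf5, Bhlhe40, Bmal1, Ccne1, Cdkn1a, Cry1, Cyp2a5, Dnaja1, Gadd45a, Gm379, Hsd3b5, Hspa1a, Hspa1b, Hsph1, Klb, Lpin1, Ngfr, Pdia6, Pfkfb3, Polr1a, Ppara, Rbm3, Srxn1, Stat5b, Tfrc and Tsku. The compared libraries alone gave 35 genes (24 higher, 11 lower), 11 for LKO against F, 19 list genes and 21 named genes. DESeq2 gave 1172 (507 higher, 665 lower), 26 for F against WT, 130 for LKO against F and 126 list genes. Same-numbered F libraries deviated together with r of 0.186, 0.0213 and 0.153, not every library correlated best with its own number, and the numbers were not taken as pairs. With the replicate block the counts were 265, 147 higher and 118 lower, 1 for F against WT and 13 for LKO against F, with 6 glucose and glycogen genes higher and 1 lower and without the call of Alas1. Alternatives chosen after seeing the data gave, for LKO against F, 38 genes with a replicate block shared by both genotypes within each time, 75 without both CT2 libraries numbered 3 and 10 without all F and LKO libraries numbered 3. A stricter filter gave 409 lower of 727. The share called higher was 50.1% in the main count, 43.7% with that filter, 43.3% in DESeq2, 68.6% with the compared libraries alone and 58.8% without F CT14 replicate 3. The time difference of Gm11454 between LKO and F reversed on log2(TPM + 1), to -0.52 (adjusted p = 0.494). In every case the cause was not tested. Other scaling, no filter, counts divided by 4 and both TPM fits gave 389 to 562 genes. Of the 86 named genes called, 47 were called in every fit that left out 1 library and 19 under all 16 alternatives run for F.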
